A study of Homo sapiens with 40 samples.

Results

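The squamous and glandular lineage transcription factors described here are 10 genes: TP63, SOX2, NKX2-1, KLF4, KLF5, FOXA1, FOXA2, GRHL2, ELF3 and GATA6. They were taken by symbol from a table of 58336 genes, and all 10 had values in at least 4 of the 10 cell lines studied, all from human non-small cell lung cancers. The series holds 40 RNA-seq libraries, 2 treated with GSK3368712 (written GSK712 in the row labels) and 2 treated with the vehicle dimethyl sulfoxide (DMSO) in each line. GSK3368712 is an inhibitor of type I protein arginine methyltransferases, the enzymes that place asymmetric dimethyl marks on arginine, with PRMT1 as the main one. The row labels put EBC1, LK2, NCIH226, NCIH520, SKMES1 and SW900 with lung squamous cell carcinoma (LUSC), and NCIH1563, NCIH1975, NCIH522 and PC9 with lung adenocarcinoma (LUAD). The labels used here do not spell out dose and time, nor do they say that duplicate libraries came from separate cultures. P-values within a line therefore measure only the spread between these libraries, which may be technical. Each line stands for 1 cultured tumour cell population, and the lines are the replicates of the comparisons across lines.

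Lineage transcription factors bind DNA and hold a cell to its type. In the airway, TP63 and SOX2 mark and maintain basal and squamous cells, and both are amplified together in many squamous lung cancers. NKX2-1 is the master factor of the alveolar cell, where it works with FOXA1 and FOXA2, pioneer factors that open closed chromatin, to drive surfactant genes. KLF4 and KLF5 are zinc-finger factors that bind GC-rich and CACCC elements, KLF4 in differentiating and KLF5 in proliferating epithelium. GRHL2 keeps cell junctions epithelial, ELF3 is an ETS factor of differentiated epithelium, and GATA6 is an endoderm factor of developing lung and gut.

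KLF4, GATA6 and ELF3 were each called in at least 4 lines, and a stretch from the 250 bases before the RefSeq start of each (GRCh38.p14) is shown for that reason, 5′ to 3′ on the strand of the gene. RefSeq promoter entries were used for 8 of the 10 factors. No entry matched FOXA2, and GRHL2 was not looked up. In the KLF4 stretch (chr9:107489770-107490019, minus strand) capitals mark the GC box GGGCGG on either strand, which occurs 4 times. In the GATA6 stretch (chr18:22169339-22169442, plus strand), which runs from 250 to 147 bases before the RefSeq start and ends at the last base before the GENCODE gene, capitals mark the KLF-type CACCC box. The window holds a second CACCC, 127 bases before the start, which is not shown. In the ELF3 stretch (chr1:202010541-202010570, plus strand), which runs from 46 to 17 bases before the RefSeq start and lies inside the GENCODE gene, capitals mark the letters TATAAA.
KLF4: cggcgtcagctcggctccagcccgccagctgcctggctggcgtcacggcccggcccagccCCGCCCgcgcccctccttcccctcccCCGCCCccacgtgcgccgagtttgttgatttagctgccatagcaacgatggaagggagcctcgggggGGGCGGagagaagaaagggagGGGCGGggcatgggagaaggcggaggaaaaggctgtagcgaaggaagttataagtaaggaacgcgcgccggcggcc
GATA6: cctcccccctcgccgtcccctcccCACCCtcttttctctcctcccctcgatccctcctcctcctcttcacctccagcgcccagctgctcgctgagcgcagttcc
ELF3: caggggacacacTATAAAgccctgagctca
Searched on both strands over the 250 bases before the start, GGGCGG was found in 42.6% of 35116 RefSeq promoter entries, CACCC in 54.7% and TATAAA in 10.7%. A match describes the letters and is not a measured binding site. The KLF4 window had a GC content of 69.2%, above 77.5% of all promoter entries, and the ELF3 window of 58.4% lay at the middle of all entries, whose median was 58%.

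The factors were unevenly present across the lines. The authors removed genes at or under 1 FPKM from each comparison, per the labels, so a factor not listed was low in that line. Of 100 possible entries of a factor in a line, 71 were listed. KLF5 was listed in all 10 lines, KLF4, FOXA1, ELF3 and GATA6 in 9, FOXA2 and GRHL2 in 6, SOX2 in 5, and TP63 and NKX2-1 in 4. SW900 listed all 10 factors and NCIH522 only 4. Levels are given as the mean normalized count over both arms, per 1000000 normalized counts of the line (CPM) and per kilobase of the longest transcript. The median of all listed genes on this scale was 5.12 to 7.25 per line. Because the authors normalized each line separately, these levels are described and not tested.

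SOX2 had the highest level of any of the factors, at 126 CPM per kilobase in NCIH520, 125 in LK2 and 60.2 in NCIH522, against 5.39 in SW900 and 0.874 in EBC1. NCIH522, the third of these lines, is labelled LUAD. The level of TP63 was 6.45 CPM per kilobase in SW900 and 5.51 in SKMES1, and 1.18 in PC9 and 0.83 in NCIH1975, both LUAD lines. NKX2-1 stood at 45.3 CPM per kilobase in SW900, against 6.57 in NCIH1975, 2.31 in LK2 and 0.921 in NCIH520. The highest NKX2-1 level was therefore in a line labelled squamous, and the remaining 3 LUAD lines did not list it. FOXA1 was also highest in SW900, at 28.0 CPM per kilobase, followed by LK2 at 10.5 and NCIH522 at 10.4. FOXA2 was highest in LK2 (28.3), NCIH520 (23.6) and SW900 (23.3), and KLF5 in LK2 (19.1) and SW900 (14.8), on the same scale. KLF4 reached 49.6 CPM per kilobase in LK2 and 42.3 in NCIH520, and was 1.80 in NCIH1563. The highest ELF3 levels were 51.7 in PC9, 31.3 in SW900 and 30.5 in NCIH1975, and the lowest was 0.406 in NCIH1563. GATA6 stood apart in NCIH226, at 27.5 CPM per kilobase against 8.73 in SKMES1, the next line. Neighbours in these orders, such as SOX2 in NCIH520 and LK2, were not tested, since the table gives no spread of the levels.

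**Figure D1:**
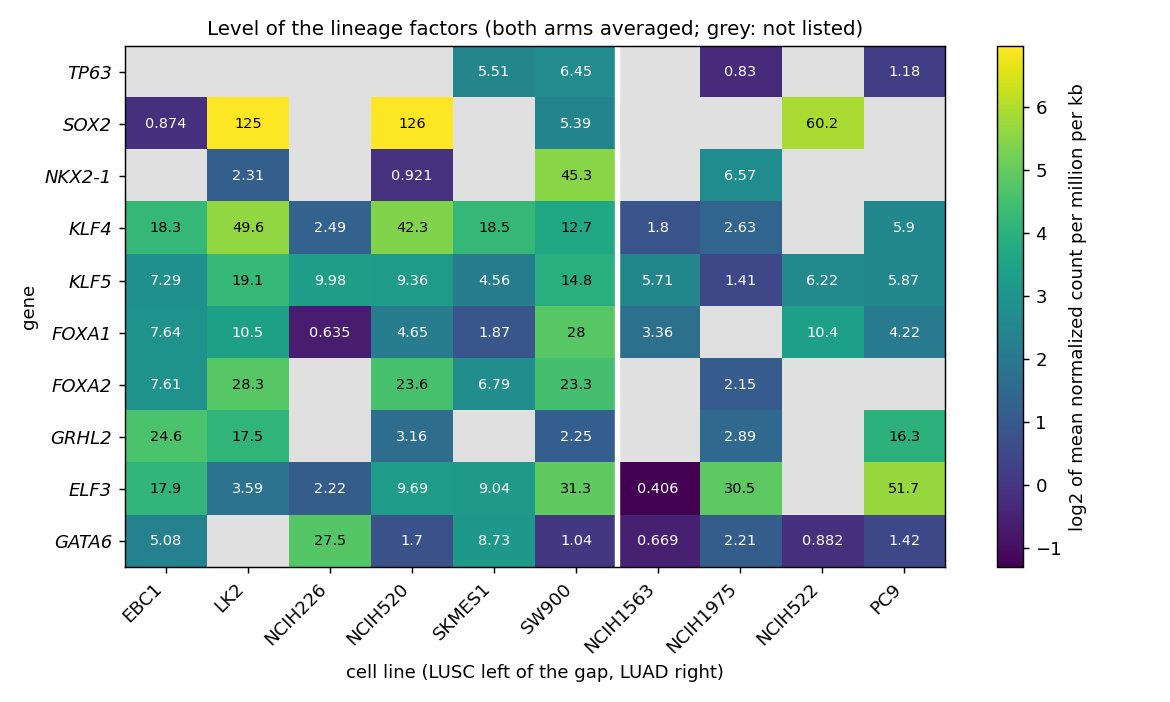
Level of each factor in each line, printed as the mean normalized count over both arms in CPM per kilobase, with colour on a log2 scale. LUSC lines stand left of the gap and LUAD lines right, and grey cells are not listed. A reader should see that SOX2 spans from 0.874 in EBC1 to 126 in NCIH520, and that NKX2-1 is highest in SW900, a LUSC line.

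Set against markers of the labelled subtypes, the lines did not divide cleanly. Of 6 squamous markers (TP63, SOX2, KRT5, KRT6A, DSG3 and PKP1), LUSC lines listed 1 to 3, and DSG3 was listed in no line. PC9, labelled LUAD, listed 4 of the 6, and NCIH1563 listed none. Of 4 adenocarcinoma markers (NKX2-1, NAPSA, SFTPB and KRT7), SW900 listed all 4, while NCIH1563, NCIH522 and PC9 listed only KRT7. TP63 and SOX2 were listed together in SW900 alone. NCIH226 listed all 4 mesothelial markers (MSLN, WT1, CALB2 and UPK3B), with a summed level of 1760 CPM, and all 4 fell in that line. LK2 and NCIH520 listed the neuroendocrine marker INSM1, and NCIH520 also listed SYP. Of 4 white blood cell markers, PTPRC and CD3E were listed in no line, CD14 in 2 and CD68 in 8. The summed level of the listed ones reached 181 CPM in NCIH1975, CD68 rose in EBC1 and NCIH1563, and CD14 rose in SW900. The names LUSC and LUAD are used below as the row labels give them.

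With the compound, 24 of the 71 entries passed the authors' adjusted p of 0.05 in the authors' deposited table, 16 higher and 8 lower. That is 33.8%, against a background of 27.5% of all listed entries, made of 13.7% higher and 13.8% lower. The median log2 fold change of the factors was 0.12, against 0.00 over all entries, and their median absolute change of 0.27 was close to the 0.26 of all genes. These are bulk libraries, in which a change in the share of cells with a factor and a change in RNA per cell cannot be told apart. In the LUSC lines 21 of 47 entries were called, 15 higher and 6 lower, against 34.7% of all genes there. In the LUAD lines 3 of 24 were called, 1 higher and 2 lower, against 15.8%. With a log2 change of 1 or more in either direction required as well, 8 entries were called, 4 higher and 4 lower, against a background of 6.02%. The median standard error of the factors was 0.11 in LUSC lines and 0.34 in LUAD lines, and the part of this in the counts was not tested. Calls were most frequent in EBC1, with 6 of 8 listed factors (background 46.5%), and SKMES1, with 5 of 7 (31.4%). NCIH226 had 3 of 5 (31.3%), SW900 3 of 10 (35.7%), LK2 2 of 8 (39.4%), NCIH520 2 of 9 (23.8%), NCIH1975 2 of 8 (7.91%) and PC9 1 of 7 (4.48%). By DESeq2 adjusted p, NCIH1563 had 0 of 5 (48.1%), with 1 at an unadjusted p under 0.05, and NCIH522 0 of 4 (1.66%), with 0. PRMT1, the targeted enzyme, is inhibited rather than deleted, so its RNA does not check the labels. Its log2 fold change averaged 0.10 ± 0.23 over 10 lines (SD; limma adjusted p = 0.436). Only NCIH1563 passed for PRMT1, at 0.52 (DESeq2 adjusted p = 0.00843), and NCIH522 stood at 0.52 (0.311).

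**Figure D2:**
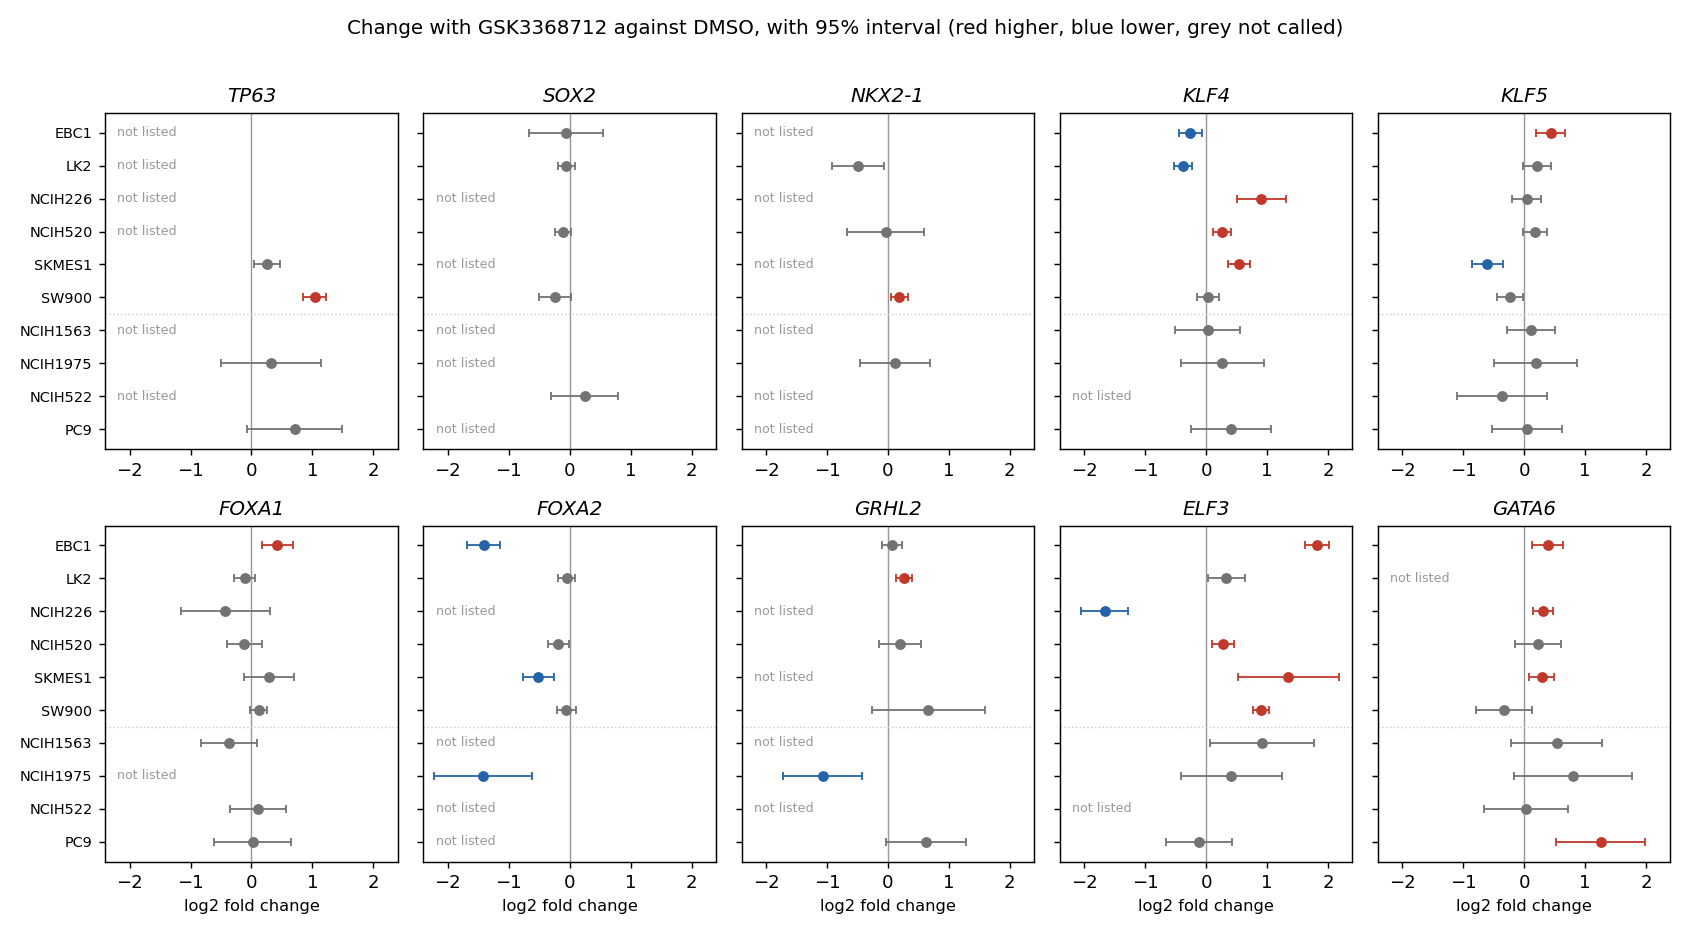
Log2 fold change of each factor with GSK3368712 over DMSO in each line, with bars of the 95% interval from the authors' standard error. Red and blue points passed the authors' adjusted p of 0.05 as higher and lower, and grey points did not. A reader should see ELF3 range from −1.67 in NCIH226 to 1.825 in EBC1, and all 6 FOXA2 points lie below 0.

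TP63, the basal cell factor, rose in SW900 and had positive values in all 4 lines that listed it. In the authors' deposited table its log2 fold change was 1.04 in SW900 (standard error 0.10, DESeq2 adjusted p = 2.41e-25), 0.71 in PC9 (0.40), 0.33 in NCIH1975 (0.42) and 0.26 in SKMES1 (0.11, adjusted p = 0.0575). Only SW900 passed, and the intervals of the LUAD lines include 0. The mean was 0.58 ± 0.36 (SD, n = 4 lines), and with genes required in only 3 lines, where 17.8% of genes passed, limma gave an adjusted p of 0.0700. TP63 lies on chromosome 3 at 189631416 to 189897279, plus strand, in GENCODE 29 on GRCh38. Its values sum all transcripts, so the long and the ΔN forms were not separated.

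SOX2, the partner factor of squamous cancer and stem cells, did not pass in any of its 5 lines by DESeq2 adjusted p, and 0 did at an unadjusted p under 0.05. Its log2 fold changes in the authors' deposited table were −0.05 in LK2 (standard error 0.07) and −0.10 in NCIH520 (0.07), the lines with the highest level, and 0.25 in NCIH522 (0.28). EBC1 stood at −0.06 (0.31) and SW900 at −0.24 (0.14). The mean was −0.04 ± 0.18 (SD, n = 5 lines; limma adjusted p = 0.831), and SOX2 did not pass the test of differences between lines (Cochran's Q = 2.97, adjusted p = 0.619). The single exon of SOX2 (chromosome 3, 181711924 to 181714436, plus strand) lies inside SOX2-OT, a long noncoding RNA on the same strand. SOX2-OT fell by 0.78 in LK2 (DESeq2 adjusted p = 0.00423 in the authors' deposited table) and by 0.49 in NCIH520 (0.0225), and was −0.46 in NCIH522 (0.78). Reads of the shared stretch can be assigned to either gene, so both values are uncertain in that respect.

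KLF4, a factor of differentiating epithelium, changed in 5 of the 9 lines that listed it, in both directions. It rose in NCIH226 by 0.91 (standard error 0.20, DESeq2 adjusted p = 8.01e-05), in SKMES1 by 0.55 (0.09, 5.98e-08) and in NCIH520 by 0.26 (0.07, 0.00448) on the log2 scale of the authors' deposited table. It fell by 0.39 in LK2 (0.07, 2.94e-06) and by 0.26 in EBC1 (0.09, 0.0166). LK2 had the highest KLF4 level and NCIH226 the lowest among LUSC lines, 49.6 and 2.49 CPM per kilobase. SW900 stood at 0.03 and the LUAD lines NCIH1563, NCIH1975 and PC9 at 0.02, 0.27 and 0.41, none of which passed. Over the 9 lines the mean was 0.20 ± 0.40 (SD; limma adjusted p = 0.292), and without NCIH226 it was 0.11 (adjusted p = 0.548). KLF4 lies on chromosome 9 at 107484852 to 107490482, minus strand, and the stretch with the GC boxes shown above falls inside this annotated span.

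KLF5, its relative of proliferating epithelium, changed in 2 lines and in opposite directions. In the authors' deposited table it rose by 0.43 in EBC1 (standard error 0.12, DESeq2 adjusted p = 0.0012) and fell by 0.61 in SKMES1 (0.13, 3.54e-05). KLF4 moved the other way in each of these lines. The other 8 lines lay between −0.36 in NCIH522 and 0.21 in LK2, and none passed. The mean was 0.00 ± 0.31 (SD, n = 10 lines; limma adjusted p = 0.998). KLF5 lies on chromosome 13 at 73054976 to 73077542, plus strand.

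NKX2-1, the alveolar master factor, was called in 1 of its 4 lines. In the authors' deposited table it was higher by 0.19 in SW900 (standard error 0.07, DESeq2 adjusted p = 0.0239), where its level was highest. LK2 stood at −0.485 (0.22, adjusted p = 0.0646), NCIH520 at −0.04 (0.32) and NCIH1975 at 0.12 (0.30). The mean was −0.05 ± 0.30 (SD, n = 4 lines), with a limma adjusted p of 0.847 when genes were required in only 3 lines. NKX2-1 lies on chromosome 14 at 36516392 to 36521149, minus strand, on the same chromosome as FOXA1.

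In SW900, where NKX2-1 was called, 13 genes of an alveolar and glandular list were listed, and 8 rose and 3 fell, against 35.7% of all genes called in that line. SFTPB, which encodes a protein of the surfactant film, rose by 5.09 on the log2 scale (standard error 0.20, DESeq2 adjusted p = 3.25e-134 in the authors' deposited table). SLC34A2, the phosphate transporter of alveolar type II cells, rose by 2.47 (0.20, 2.7e-32). SFTA3, which neighbours NKX2-1, rose by 0.425 (0.08, 3.92e-07). NAPSA, a protease that processes surfactant protein, stood at 0.31 (0.21, 0.27). ABCA3, the lipid transporter of surfactant bodies, fell by 1.30 (0.14, 4.64e-18), so the alveolar genes did not move together. EBC1 and NCIH226, without NKX2-1 listed, each had 3 higher and 3 lower of 6 listed genes (background 46.5% and 31.3%). NCIH1563 had 3 and 2 of 6 (48.1%) and SKMES1 3 and 1 of 5 (31.4%), also without NKX2-1. PC9 had 0 and 2 of 8 (4.48%) and NCIH522 0 and 0 of 6 (1.66%), again without it. Where it was listed, LK2 had 2 and 3 of 8 (39.4%) and NCIH520 1 and 3 of 8 (23.8%). NCIH1975, which also listed it, had 1 and 1 of 7 (7.91%). SFTPB and SLC34A2 were listed in no other line, and both were chosen after their values were seen. Their levels in SW900, averaged over both arms, were 11.9 and 6.93 CPM. A gene low in DMSO can pass the filter of 1 FPKM through its rise. The listing of these 2 genes, and their part in the count of genes that rose, may therefore depend on the rise itself.

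FOXA1, a pioneer factor, was called in 1 of 9 lines. In the authors' deposited table it rose by 0.425 in EBC1 (standard error 0.13, DESeq2 adjusted p = 0.00377), and the other lines lay between −0.43 in NCIH226, where its level was lowest, and 0.29 in SKMES1. Its mean was −0.01 ± 0.28 (SD, n = 9 lines; limma adjusted p = 0.965). FOXA1 lies on chromosome 14 at 37589984 to 37596059, minus strand.

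FOXA2, its paralog, had negative values in all 6 lines that listed it and fell in 3 of them. It fell by 1.41 in EBC1 (standard error 0.14, DESeq2 adjusted p = 2.26e-23), by 1.42 in NCIH1975 (0.41, 0.0109) and by 0.51 in SKMES1 (0.13, 0.000665) on the log2 scale of the authors' deposited table. NCIH520 stood at −0.19 (0.09, 0.108), SW900 at −0.05 (0.08, 0.655) and LK2 at −0.05 (0.07, 0.634). The 3 lines that passed had FOXA2 levels of 2.15 to 7.61 CPM per kilobase, and the 3 that did not pass had 23.3 to 28.3. These 2 sets were formed from the calls, and the share of all genes with such an order is not given here. Pearson's r of log2 level against change was 0.87 for FOXA2. It was −0.46 to 0.45 for the other factors listed in at least 6 lines. Level and change come from the same libraries of a line, since the level averages both arms. The mean was −0.61 ± 0.65 (SD, n = 6 lines), negative in 6 of 6, and the limma adjusted p was 0.0954. EBC1 therefore had FOXA1 and FOXA2 called in opposite directions. FOXA2 lies on chromosome 20 at 22581005 to 22585455, minus strand.

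GATA6, the endoderm factor, was called higher in 4 lines and lower in none. In the authors' deposited table it rose by 1.25 in PC9 (standard error 0.375, DESeq2 adjusted p = 0.0266), by 0.39 in EBC1 (0.13, 0.00812), by 0.31 in NCIH226 (0.085, 0.00179) and by 0.29 in SKMES1 (0.105, 0.0238). SW900 was the 1 line of 9 with a negative value, −0.335 (0.23, 0.271). The mean was 0.39 ± 0.45 (SD, n = 9 lines), and the limma adjusted p was 0.0738, or 0.0334 without SW900, when the mean was 0.48. The mean was 0.28 without PC9 (limma adjusted p = 0.117) and 0.34 without NCIH1975 (0.145). With each line left out, the limma adjusted p ranged from 0.0334 to 0.145. GATA6 lies on chromosome 18 at 22169443 to 22202528, plus strand.

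GRHL2, which maintains epithelial junctions, was called in 2 of 6 lines with opposite signs. In the authors' deposited table it rose by 0.26 in LK2 (standard error 0.07, DESeq2 adjusted p = 0.00068) and fell by 1.07 in NCIH1975 (0.33, 0.0222). EBC1, with the highest level, stood at 0.07 (0.08), NCIH520 at 0.20 (0.18), PC9 at 0.62 (0.33) and SW900 at 0.67 (0.47). The mean was 0.12 ± 0.63 (SD, n = 6 lines; limma adjusted p = 0.736). It was 0.36 without NCIH1975 (limma adjusted p = 0.0960), 0.0246 without PC9 and 0.0164 without SW900. Among the 201 genes of most similar mean count in SW900, GRHL2 included, GRHL2 had the largest standard error, and their median was 0.145.

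ELF3, an epithelial ETS factor, showed the widest range of the 10 factors, from −1.67 to 1.825. It rose in EBC1 by 1.825 (standard error 0.10, DESeq2 adjusted p = 2.7e-73), a ratio of 3.54, in SKMES1 by 1.35 (0.42, 0.00693), in SW900 by 0.90 (0.07, 4.21e-40) and in NCIH520 by 0.27 (0.09, 0.0184) on the log2 scale of the authors' deposited table. It fell by 1.67 in NCIH226 (0.20, 1.17e-15), to a ratio of 0.315. NCIH1563 stood at 0.92 (0.43, adjusted p = 0.0657), NCIH1975 at 0.42 (0.42), LK2 at 0.33 (0.15) and PC9, the line with the highest level, at −0.12 (0.27). NCIH226 is the line in which the 4 mesothelial markers fell and KLF4 rose most. The mean was 0.47 ± 1.00 (SD, n = 9 lines; limma adjusted p = 0.277), and without NCIH226 it was 0.74 with an adjusted p of 0.0304. Without EBC1 it was 0.30 (adjusted p = 0.504). Among the 201 genes of most similar mean count in SKMES1, ELF3 included, ELF3 had the largest standard error, and their median was 0.098. ELF3 lies on chromosome 1 at 202007945 to 202017188, plus strand.

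Across lines, none of the 8 factors with values in at least 5 lines passed limma, against a background of 19.5% of 13641 genes. At an unadjusted p under 0.05 there were 2, FOXA2 and GATA6. The exact two-sided sign-flip test over lines gave FOXA2 a p of 0.0312, the smallest that 6 lines allow, and GATA6 a p of 0.0352, both unadjusted. A random-effects meta-analysis with the authors' standard errors called both, with FOXA2 at −0.53 (adjusted p = 0.0221) and GATA6 at 0.30 (0.0048). The share of all genes that the meta-analysis called is not given here, so these 2 calls cannot be set against a background.

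The lines differed from each other in 6 of these 8 factors by Cochran's Q, against a background of 64.4% of 13641 genes. ELF3 had a Q of 323 (adjusted p = 1.73e-62), KLF4 101 (5.48e-17), FOXA2 99.5 (1.49e-18), KLF5 46.9 (1.86e-06), GRHL2 20.1 (0.00266) and FOXA1 20.04 (0.0180). The share of the spread between lines beyond the authors' standard errors (I2) was 97.5% for ELF3, 94.97% for FOXA2 and 92.1% for KLF4. GATA6 gave a Q of 16.5 (adjusted p = 0.0545) and did not pass. The GRHL2 difference rested on NCIH1975: without it Q was 5.82 (adjusted p = 0.263). FOXA1 did not pass without EBC1 (adjusted p = 0.196) or without LK2 (0.0524), and GATA6 passed when EBC1, NCIH1563, NCIH1975, NCIH226, NCIH520, NCIH522 or SKMES1 was left out (0.0346 to 0.0481). The test takes the authors' standard errors at face value, and with errors enlarged 1.5 times only ELF3, KLF4 and FOXA2 passed.

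The change did not differ between LUSC and LUAD lines beyond the spread for any of the 7 factors tested, at an unadjusted p under 0.05 or by limma adjusted p, against 0.0% of 13142 genes at the adjusted threshold and 894 genes unadjusted. The widest mean difference was that of GRHL2, at 0.52 (95% interval −0.54 to 1.58), LUSC minus LUAD. GATA6 averaged 0.17 in LUSC and 0.65 in LUAD lines, a difference of −0.48 (−1.03 to 0.08), which was −0.28 without PC9 and −0.68 without NCIH522 (limma adjusted p = 0.853 and 0.590). For ELF3 it was 0.09 (−1.33 to 1.52), for TP63 0.13 (−0.80 to 1.05) and for FOXA1 0.11 (−0.36 to 0.58). For KLF4 it was −0.05 (−0.67 to 0.57) and for KLF5 0.01 (−0.45 to 0.47). These intervals leave room for differences of over 0.4 on the log2 scale in either direction for each factor except GATA6 and FOXA1.

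Transcripts beside the factors gave 14 calls in 55 entries over 12 listed genes. They were 7 higher and 7 lower, 12.7% each, close to the 13.7% and 13.8% of all listed entries. The median of the 5 tested across lines was 0.09, against 0.01 over all genes tested. LINC00261, a noncoding RNA next to FOXA2, fell by 0.69 in SKMES1 (DESeq2 adjusted p = 0.000953) and by 0.25 in SW900 (0.0169) in the authors' deposited table. It stood at −0.08 in both LK2 and NCIH520, and it was not listed in EBC1 or NCIH1975, where FOXA2 fell most. ELF3-AS1, antisense to ELF3, was called in 0 of its 6 lines by DESeq2 adjusted p and in 2 at an unadjusted p under 0.05. It stood at 0.91 in EBC1 (0.0705), 0.47 in SW900 and −0.59 in NCIH520. The kit marks strand per the labels, but the counting settings for strand are not given in the sources used here, so antisense partners are uncertain. GATA6-AS1 stood at 1.00 in EBC1 (standard error 0.53) and 0.01 in NCIH226. Near NKX2-1, PAX9 rose by 0.47 in EBC1 (0.0164) and by 0.42 in SW900 (0.0066), and NKX2-8 rose by 1.76 in EBC1 (0.00376). NKX2-1 itself was not listed in EBC1.

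**Figure D3:**
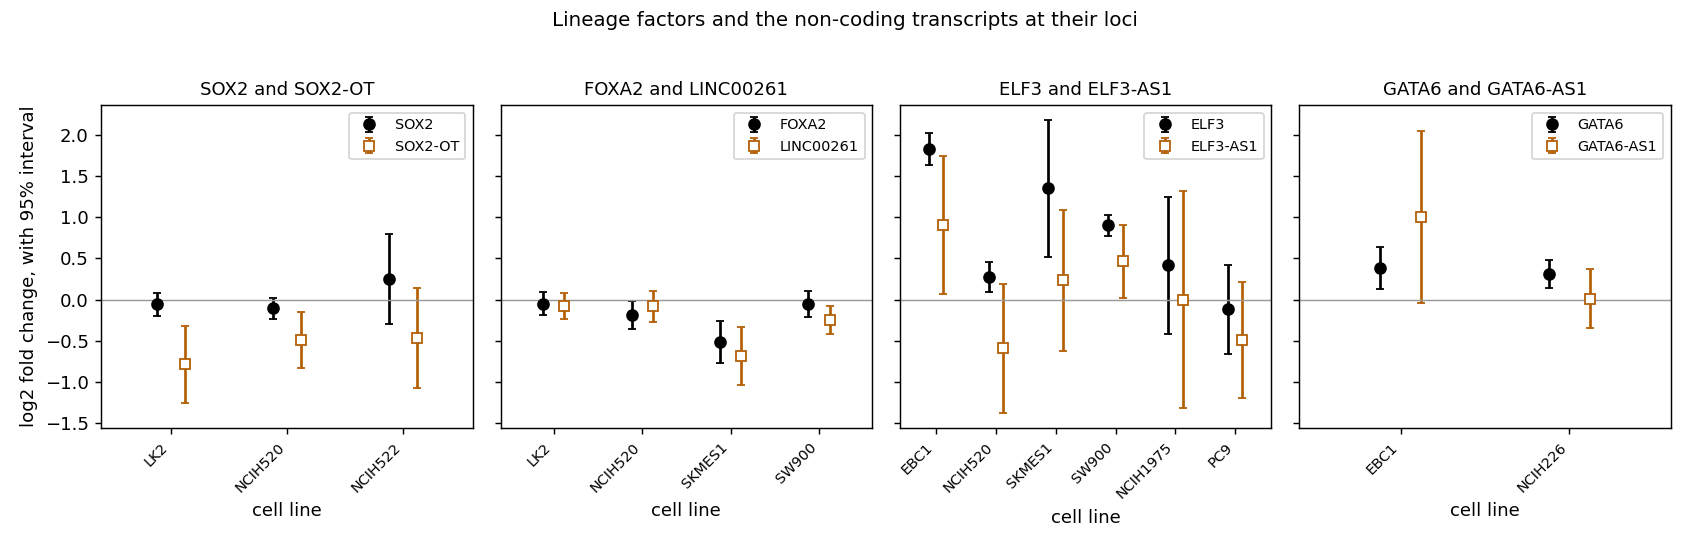
Log2 fold change with GSK3368712 over DMSO of 4 factors (black circles) and of a noncoding transcript beside each (open squares), in the lines that list both, with bars of the 95% interval from the authors' standard error. A reader should see SOX2-OT at −0.78 in LK2 while SOX2 stands at −0.05, and LINC00261 at −0.69 in SKMES1.

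Genes that these factors work with or act on were followed in 9 lists, which were chosen with earlier results of these data known. Each is described by its counts beside the 13.7% and 13.8% of all entries called higher and lower, and beside the 9.31% and 10.2% of genes that passed higher and lower across lines, whose median mean change was 0.01. Of 14 tested genes of the squamous programme, 1 rose and 1 fell across lines. TRIM29, a keratinocyte scaffold protein, rose by 0.61 ± 0.36 (SD, n = 5; limma adjusted p = 0.0331). SFN, the 14-3-3 sigma protein of squamous epithelium, fell by 0.64 on average ± 0.38 (SD, n = 9; adjusted p = 0.00439), and was negative in 9 of 9 lines. Over entries the list had 33 higher and 28 lower of 137, and the median of its tested genes was 0.12.

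Of 11 tested partner factors of squamous cells, 2 rose and 0 fell. RUNX1, a runt factor of basal epithelium, had a mean of 0.39 ± 0.21 (SD, n = 9; limma adjusted p = 0.00762), and the receptor NOTCH2 of 0.345 ± 0.28 (SD, n = 10; 0.0205). Their entries gave 20 higher and 12 lower of 106, and the median over tested genes was 0.0069. Among 22 tested paralogs of the factors, KLF11 rose (0.43 ± 0.36, n = 10; 0.0176) and none fell, with 36 higher and 23 lower of 202 entries and a median of 0.11. GATA3, the paralog of GATA6 in luminal and squamous epithelium, had a mean of 0.23 (0.139).

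Of 6 tested genes of the alveolar and glandular programme, 1 rose and 2 fell. ABCA3 fell by 1.19 on average ± 0.57 (SD, n = 9; limma adjusted p = 0.00118) and was called lower in 8 of 9 lines. LPCAT1, which makes surfactant lipid, fell by 0.60 on average ± 0.51 (SD, n = 10; adjusted p = 0.0153). MUC1, a membrane mucin, rose by 0.99 ± 0.85 (SD, n = 10; 0.0134), called higher in 7 lines and lower in 1. The entries of the list split into 24 higher and 21 lower of 73, and its median over tested genes was 0.16.

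Of 21 gastric and intestinal genes 14 were listed, and AGR2, a secretory-cell isomerase, was the 1 gene tested across lines. It fell by 0.92 on average ± 0.70 (SD, n = 7; limma adjusted p = 0.0216), called lower in 5 lines and higher in 1, and the list's entries gave 10 higher and 7 lower of 34. Of 23 tested epithelial targets of grainyhead factors and ELF3, 0 rose and 1 fell: CLDN3, a tight junction claudin, at −0.57 ± 0.50 (SD, n = 8; 0.0308). Their 180 entries held 36 higher and 21 lower, and their median was 0.08. Of 2 tested neuroendocrine genes, SCG2, a secretory granule protein, rose in 5 of 5 lines, with a mean of 1.22 ± 0.41 (SD; 0.00324). The list had 9 entries higher and 6 lower of 32, and SCG2 held 5 of those called higher. NCAM1 was called lower in 3 of 3 lines, INSM1 in 2 of 2 and POU3F2 in 1 of 2, all listed in too few lines to be tested. CHGB was called higher in 2 of 4 lines, and SYP and POU2F3 each in 1 of 3. Of 12 tested mesenchymal and mesothelial markers none passed by limma adjusted p and 3 passed at an unadjusted p under 0.05, and 21 entries were higher and 16 lower of 99, with a median of 0.21.

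**Figure D4:**
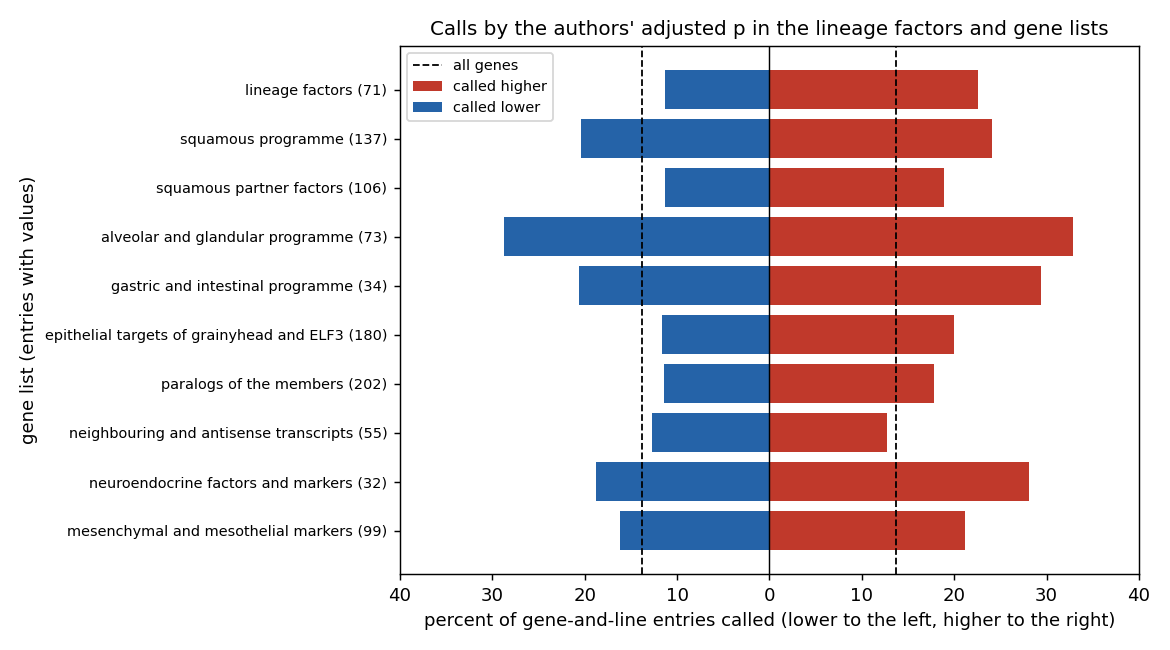
Share of entries called higher and lower by the authors' adjusted p in each gene list, in percent, lower to the left and higher to the right. Dashed lines mark all listed genes, and numbers in brackets are entries. A reader should see the epithelial targets with 20% higher and 11.7% lower, against 13.7% and 13.8% of all entries.

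The genes whose changes tracked a factor most closely over its lines are given by Pearson's r, as a description over lines that share their libraries with the factor. FOXA2 was closest to HMGA1 (r = 0.99, n = 6 lines) and NUDT1 (0.99), of 2450 genes compared. HMGA1, a chromatin protein, stood at −0.89 in EBC1 and −0.98 in NCIH1975, the lines of the largest FOXA2 falls. GRHL2 was closest to MAP7, a microtubule protein (1.00, n = 6), which stood at −1.16 in NCIH1975. FOXA1 was closest to CASTOR3 (0.96, n = 9), KLF4 to CCDC149 (0.91, n = 9), ELF3 to NUDT12 (0.92, n = 9), GATA6 to CNN3 (0.89, n = 9) and KLF5 to LRRK1 (0.82, n = 10). Each is the highest of at least 2450 values over 6 to 10 lines. Between factors, the pairs named here are those with the largest absolute r of change among all pairs listed together in at least 6 lines. The change of FOXA1 tracked that of ELF3 with r = 0.74 and Spearman's rho = 0.69 over 8 lines, and r was 0.31 without NCIH226 and EBC1. KLF4 and ELF3 gave r = −0.64 and rho = −0.43 over 9 lines, and r was −0.52 without LK2 and NCIH226. KLF4 and KLF5 gave r = −0.47 and rho = −0.67 over 9 lines, and r was −0.65 without LK2 and NCIH226.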

How the data were processed

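Gene expression was measured by RNA sequencing, per the labels' protocols with the TruSeq Stranded mRNA kit and paired reads of 151 bases. Per the submitters' processing notes, Salmon 0.12.0 quantified the reads on GRCh38 and DESeq2, whose version is not given in the sources used here, compared the arms. Genes at or under 1 FPKM were removed per comparison, per the labels. The only values used were the authors' deposited table: log2 fold changes with their standard errors, Benjamini-Hochberg adjusted p-values, the test statistic (a score, not printed), mean normalized counts (a signal over both arms of a line) and the authors' mark of 0 or 1 (not printed). A positive change is read as higher with the compound because its name stands first in each row label, which no value in the table can check. Single libraries were not analysed here. Mean normalized counts summed to 57647556 to 108557964 per line over 12721 to 14565 genes, so no counting interval is given.

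A factor was called within a line at the authors' adjusted p of 0.05. Across lines, limma 3.58.1 (R 4.3.3) tested the mean of 1 fold change per line for genes listed in at least 5 lines, and LUSC minus LUAD for genes listed in at least 2 lines of each. Cochran's Q, weighted by the deposited standard errors, tested whether lines differed. P-values were adjusted by Benjamini-Hochberg over all genes tested. SDs beside means are over lines, not libraries. Tested on simulated data, limma across lines found 49% of the genes given a shift of 0.5 and 89% of those given 1 (13641 genes), Cochran's Q found 84%, and the subtype test recovered 48% of differences of 1 and 89% of 2 (13142 genes).

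The members, gene lists and tests were chosen with earlier results of these data known. Named genes were the 10 factors, up to 4 genes per list with the smallest unadjusted p across lines, the listed neighbouring transcripts, PRMT1, and the 2 protein-coding genes with the highest r to a factor listed in at least 6 lines, among genes with an SD of at least 0.3. Some genes that this rule takes are not reported here. Positions, transcript lengths and overlaps came from GENCODE 29, and promoter sequences from RefSeq. Alternatives were recomputed adjustment, stricter thresholds, other line minimums, centring, scaling, a random-effects meta-analysis, exact tests, enlarged standard errors and leaving out each line. Leaving out NCIH1975, NCIH522 and PC9, leaving out entries of unusually large standard error, and leaving out each line from the calls were added after seeing the data.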

Additional observations from a re-analysis of the deposited data

Results flagged for a closer look

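GRHL2 in NCIH1975 was far from the other lines. Its log2 fold change there was −1.07, the next lowest of the 6 lines was 0.07 in EBC1, and this gap was 0.655 of the whole range, above the critical share of 0.625. Chance marks about 1 in 20 groups in this way. Each of the 10 factors was such a group, searched at both ends of its values, and GRHL2 was the only one marked. The line's median standard error of 0.342 was the largest of the 10, and its part in this value was not tested.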

How the results depend on the processing

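Calls within lines were 16 higher and 8 lower. They were 4 higher and 4 lower when a log2 fold change of at least 1 was also required, and 12 higher and 5 lower at an adjusted p of 0.01. Leaving out each line gave 12 to 16 higher and 6 to 8 lower, of 61 to 67 entries. Leaving out NCIH1975, NCIH522 and PC9 gave 15 higher and 6 lower of 52. The share of all genes called at 0.01 or with lines left out is not given here. Across lines, 0 of 8 factors passed, and 2 passed in the random-effects meta-analysis, for which no share of all genes is given. Leaving out each line gave 0 to 1, with ELF3 passing without NCIH226 and GATA6 without SW900. Differences between lines were called for 6 factors, for 3 with standard errors enlarged 1.5 times, and for 5 to 7 when each line was left out. Values near 0 changed sign: the mean of KLF5 was −0.0033 after centring and −0.0235 after scaling, and that of FOXA1 was 0.0370 by meta-analysis. With each line left out, the mean of KLF5 ranged from −0.0479 to 0.0677 and that of FOXA1 from −0.0624 to 0.0444. The LUSC minus LUAD difference ranged from −0.19 to 0.0648 for KLF4, −0.11 to 0.13 for KLF5, −0.17 to 0.53 for ELF3 and −0.0332 to 0.20 for FOXA1, and no factor passed that test in any setting run. Apart from the settings that leave out lines or enlarge errors, the cause of these changes was not tested. No paired analysis was possible because the table holds comparisons within lines and no values per library. Library depth was not analysed here.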
